A study of Homo sapiens with 4 samples.

Results

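The 10 G protein-coupled receptors described here were grouped under the heading of B-cell positioning in lymphoid tissue, a role these arrays do not measure. They are GPR18, GPR183, CXCR3, CXCR4, CXCR5, CCR6, CCR7, S1PR1, S1PR2 and P2RY8. Every probe set whose platform annotation gives exactly 1 of these symbols was taken, which gave 15 probe sets out of 54675 and 10 genes out of 19775. The set was assembled around GPR18, which was selected on the small p-value and wide separation of its signal in the same contrast that is described below. Its difference is therefore given as a description without a test. The other receptors were chosen by their role, with earlier results of these arrays known.

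Z138, the cells used, is an established human line. It comes from mantle cell lymphoma, a cancer of B cells that commonly expresses the transcription factor SOX11. In the shSOX11 group, 2 arrays held cells stably transduced by lentivirus with hairpin RNAs against SOX11 (constructs shSOX11.1 and shSOX11.3). In the shControl group, 2 arrays held cells transduced in the same way with scrambled hairpins (shControl.1 and shControl.2), so all 4 samples carry a lentiviral insert. Total RNA was measured on Affymetrix U133 Plus 2.0 arrays. Every array stands for its own construct. The labels do not mention repeated cultures, nor whether cells were cloned after transduction. The p-values therefore rest on the spread of these 4 samples alone, which can be technical in origin.

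A migrating B cell reads gradients of chemokines and lipids through receptors of this kind, most of which signal through inhibitory G proteins towards the actin cytoskeleton. CXCR5 and CCR7 draw B cells to the follicle and to the T-cell zone, CXCR4 holds them in bone marrow and in the dark zone of the germinal centre, and GPR183 leads them along oxysterol gradients to the outer follicle. S1PR1 directs exit into the circulation, whereas S1PR2 and P2RY8 couple to the G protein alpha subunit GNA13, restrain migration and confine germinal centre B cells. In mantle cell lymphoma CXCR4 and CCR7 are known for their part in homing to marrow and lymph nodes.

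SOX11, the target of the hairpins, stood at between 36.0% and 45.4% of the shControl level at its 3 probe sets. Each array had a 2% trimmed mean of 150, with a median signal of 24.3 and 23.9 on the shSOX11 arrays and of 25.7 and 25.3 on the shControl arrays. The B-cell gene MS4A1 and the mantle cell lymphoma cyclin CCND1 were bright on all arrays. MS4A1 read 6823 and 7426 with the SOX11 hairpins and 8358 and 7778 with the scrambled ones, and CCND1 read 9753 and 8610 against 9760 and 10320. The summed signal of 8 B-cell and mantle cell lymphoma markers was 18414 and 18711 on the shSOX11 arrays and 22002 and 21956 on the shControl arrays. Of the 7 that passed the filter 6 were lower on both shSOX11 arrays, and 1 of these is SOX11, the target itself. Among all 11938 kept genes, at 1 probe set each, 24.9% were lower and 16.2% higher on both shSOX11 arrays. What the lower marker signals mean was not tested. CD5, also typical of this lymphoma, was at 7.87 or less on every array. Of 14 T and NK cell markers 5 passed the signal filter, and the summed signal of all 14 was 627.7 and 651.1 on the shSOX11 arrays against 832.1 and 804.4 on the shControl arrays. Of the defining T-cell markers CD8A was at 4.32 or less on each array. The CD3 chains differed in brightness. CD3G passed, at 128.9 and 202.9 with the SOX11 hairpins against 160.0 and 207.2. CD3D, at 20.07 and 8.592 against 29.29 and 14.14, and CD3E, at 23.06 and 13.75 against 14.32 and 27.2, did not pass the filter. CD7 did not pass either, and CD2 passed near the threshold, at 25.72 and 6.282 against 26.9 and 22.32. CD4, which did not pass the filter, was higher on both shSOX11 arrays, at 42.45 and 19.52 against 13.73 and 12.58. PRF1, which passed, was at 120.2 and 210.8 against 163.2 and 149.1. LCK, a kinase of this list, was at 138.5 and 88.7 against 225.7 and 228.2, and CD247 at 80.41 and 67.05 against 113.9 and 111.5, so both were lower on both shSOX11 arrays. Of 10 myeloid markers 4 passed, with sums of 180.9 and 149.8 against 188.7 and 141.0. CSF3R, at 30.6 and 30.3 against 8.51 and 7.67, and CSF1R, at 25.7 and 28.9 against 15.1 and 8.98, were near the threshold and higher on both shSOX11 arrays. The groups overlapped for ITGAM, at 44.7 and 20.8 against 26.9 and 30.0, and for FCER1G, at 24.9 and 8.53 against 37.8 and 17.6. Of 11 epithelial and stromal markers 4 passed, with sums of 1231 and 1016 against 1227 and 1222. Most of each sum came from 1 probe set of COL1A1, at 1047 and 881 against 1063 and 1012. Every other marker of this list was at 63.55 or less on each array. The part of other cells in the results was not tested. Between the 3′ and 5′ control probe sets for beta-actin, whose ratio reflects how complete the labelled RNA is, the signal ratio was 7.29 and 5.31 on the shSOX11 arrays and 11.6 on both shControl arrays. For GAPDH it was 1.01 and 1.03 on the shSOX11 arrays and 0.978 and 1.06 on the shControl arrays. The beta-actin ratio moved with the groups, and its part in any result below was not tested. In bulk RNA, fewer cells with a transcript and less of it per cell cannot be told apart.

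The 250 bases before the annotated start of GPR18, GPR183 and CXCR4 are shown, because these 3 receptors had the widest differences, each of a different kind. They come from RefSeq on GRCh38.p14, all on the minus strand, at chr13:99258380-99258629 for GPR18, chr13:99307400-99307649 for GPR183 and chr2:136118150-136118399 for CXCR4. Capitals mark matches to the short word that SOX proteins are known to bind, which is CAAAG or CAATG preceded by 2 bases that are each A or T, searched on both strands. A match shares no bases with another match here.
GPR18: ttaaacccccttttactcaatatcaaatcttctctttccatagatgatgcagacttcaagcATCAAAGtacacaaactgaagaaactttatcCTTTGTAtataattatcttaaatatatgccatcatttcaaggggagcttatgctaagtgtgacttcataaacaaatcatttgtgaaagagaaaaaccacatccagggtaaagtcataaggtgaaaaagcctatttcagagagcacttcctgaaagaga
GPR183: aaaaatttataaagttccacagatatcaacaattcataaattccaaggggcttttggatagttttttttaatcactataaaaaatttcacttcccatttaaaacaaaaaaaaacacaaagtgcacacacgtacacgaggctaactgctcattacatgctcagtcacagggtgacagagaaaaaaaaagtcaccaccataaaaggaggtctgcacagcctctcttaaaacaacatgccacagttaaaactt
CXCR4: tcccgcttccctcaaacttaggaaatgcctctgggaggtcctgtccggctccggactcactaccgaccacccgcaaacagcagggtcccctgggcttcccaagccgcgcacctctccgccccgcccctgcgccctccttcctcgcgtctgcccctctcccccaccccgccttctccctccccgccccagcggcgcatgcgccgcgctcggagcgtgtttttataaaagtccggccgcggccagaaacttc
GPR18 held 2 such words, at 189 and 158 bases before the start, and GPR183 and CXCR4 held 0. Of 27303 promoters of the same length in the table, 18.2% held at least 1 word and 2.96% held 2 or more. Among the 9 receptors with an entry, CXCR5 and CCR6 each held 1, at 42 and 145 bases before the start, and S1PR1, S1PR2, P2RY8 and CXCR3 held 0. For CXCR5 and S1PR1 this start lies inside the annotated span of the gene. The CXCR5 stretch is wholly within that span, and the S1PR1 stretch is partly within it. A match is a description of the letters and not a site of binding, and the start that Z138 cells use was not measured.

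To enter the fit, a probe set needed a signal over 24.83, which is the median over the whole table, on 2 or more of the 4 arrays; it is called kept below. Of the 15 receptor probe sets 9 were kept, and they stand for 7 genes. CXCR3, CXCR5 and CCR6 had no kept probe set. Both CXCR3 probe sets lay between 2.23 and 23.3, both CXCR5 probe sets between 3.26 and 22.4, and that of CCR6 between 1.18 and 8.40. The follicle receptor CXCR5, the CCL20 receptor CCR6 and CXCR3, which binds interferon-induced chemokines, were thus under the threshold on all 4 arrays. Whether their transcripts were absent cannot be read from this, since no detection calls were used. The dimmest kept receptor probe set was that of S1PR2, at 58.9 at its lowest, while the second S1PR2 probe set (208537_at) was at 3.28 or less on every array.

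**Figure D1:**
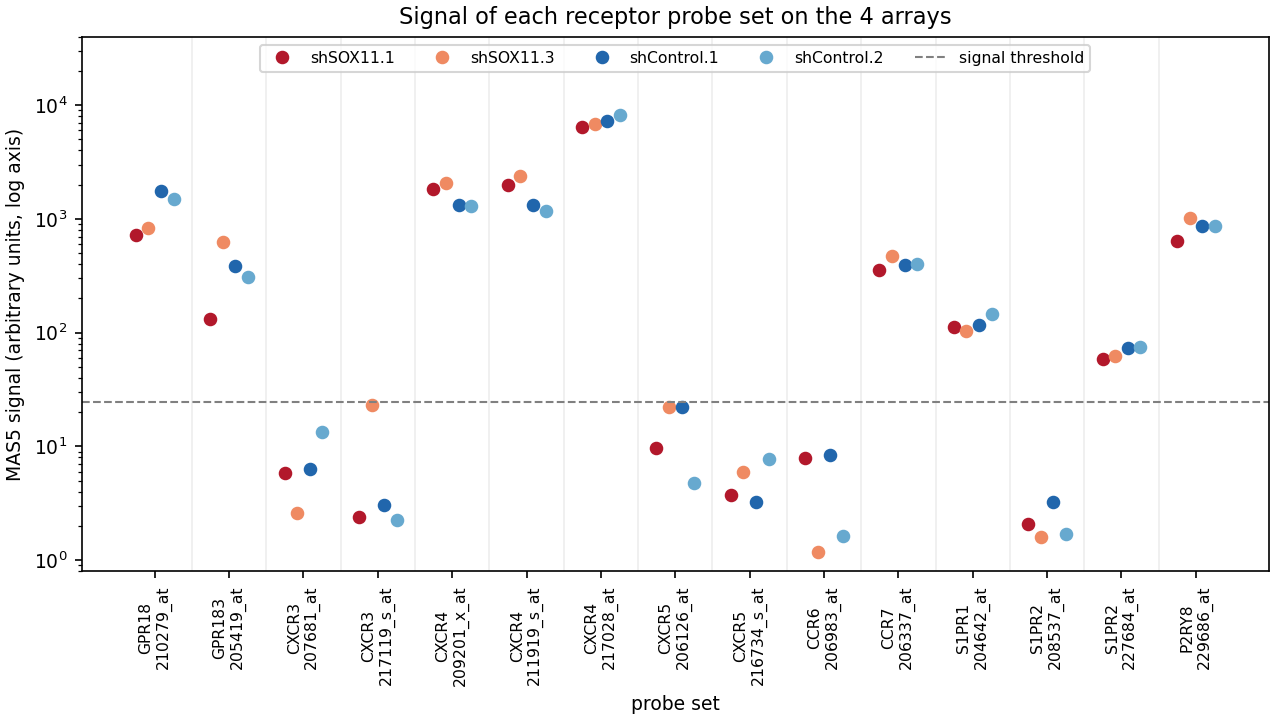
MAS5 signal (vertical, log axis) of each of the 15 receptor probe sets, with 1 point per array in the order shSOX11.1, shSOX11.3, shControl.1 and shControl.2, and the signal threshold of 24.83 as a dashed line. GPR18 is lower on both shSOX11 arrays, the shSOX11 arrays of GPR183 lie on either side of the controls, and all points of CXCR3, CXCR5 and CCR6 are under the threshold.

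GPR18 is a receptor of lymphocytes whose proposed lipid ligands are disputed. Its signal at probe set 210279_at was 726.9 and 834.8 on the shSOX11 arrays, against 1749 and 1504 on the shControl arrays. Both shSOX11 arrays were lower than both shControl arrays, by 1.80-fold to 2.41-fold over the 4 pairs of arrays. The log2 means were 9.61 ± 0.14 and 10.66 ± 0.15 (SD, n = 2 each), a log2 change of -1.06 with a standard error of 0.16, or 48.04% of the shControl level. Against the shControl mean the change was -1.16 with shSOX11.1 and -0.96 with shSOX11.3, so the hairpins differed by 0.20 from each other. The 2 shControl arrays differed by 0.22. GPR18 has 1 probe set, so no second measurement on the array bears on this value.

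GPR183, also called EBI2, is the oxysterol receptor whose gene neighbours GPR18. Both genes lie within the span of UBAC2, on the strand opposite to it. The signal of GPR183 was 131.8 with shSOX11.1 and 632.8 with shSOX11.3, against 384.0 and 307.9 on the shControl arrays. The 2 hairpins thus lay on opposite sides of the controls, at -1.38 and 0.88 on the log2 scale against the shControl mean. The arrays of the hairpins differed by 2.26, where the shControl arrays differed by 0.32 and where the median absolute difference over all kept probe sets was 0.329 between the shSOX11 arrays and 0.213 between the shControl arrays. The mean change of -0.25 (SE 0.58, 95% confidence interval -1.56 to 1.06, limma adjusted p = 0.918) describes neither hairpin. Without shSOX11.1 it was 0.88, and without shSOX11.3 it was -1.38. GPR183 was singled out for this after its values were seen. Of 28202 kept probe sets, 38 (0.135%) had shSOX11.1 at least 1.5-fold below and shSOX11.3 at least 1.5-fold above both shControl arrays.

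**Figure D2:**
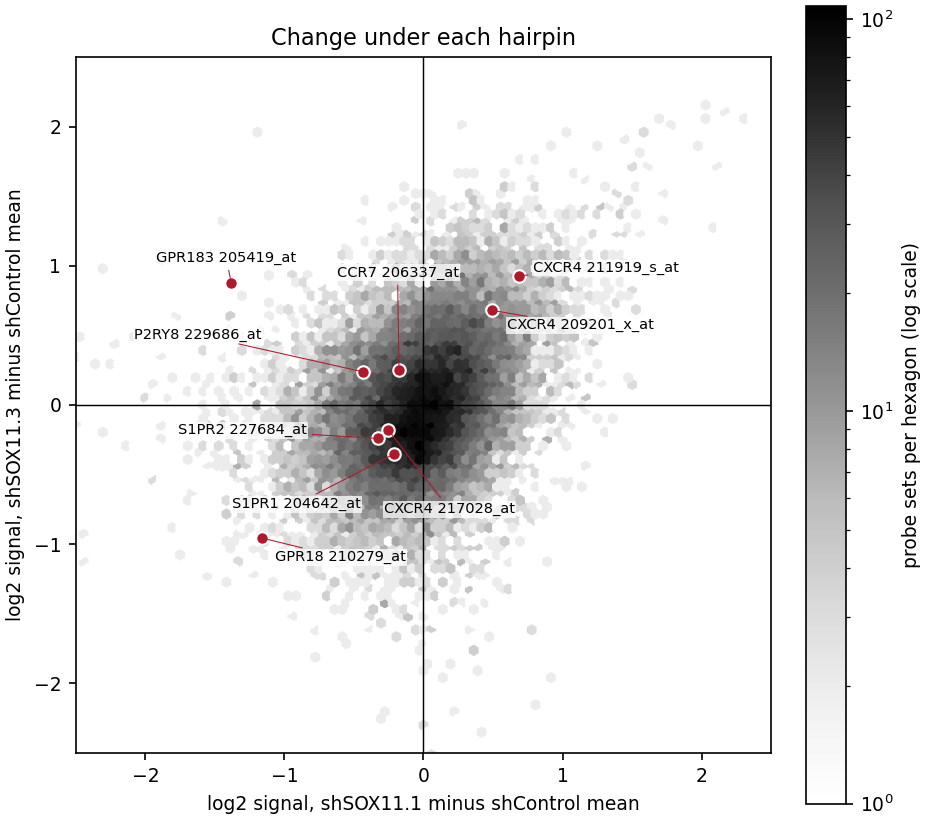
Log2 signal minus the shControl mean for shSOX11.1 (horizontal) and shSOX11.3 (vertical), with the 9 kept receptor probe sets in red over the density of all 28202 kept probe sets in grey; 439 probe sets beyond 2.5 on either axis are not drawn. GPR18 lies low on both axes, 2 CXCR4 probe sets lie high on both, and GPR183 lies at -1.38 and 0.88, where the hairpins disagree.

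CXCR4 is the receptor for CXCL12 and was bright at each of its 3 probe sets, which did not differ between the groups in 1 direction. At 211919_s_at the signal was 2002 and 2368 on the shSOX11 arrays against 1319 and 1174 on the shControl arrays, higher with a log2 change of 0.81 (1.75-fold, SE 0.16, limma adjusted p = 0.348). At 209201_x_at, a type that Affymetrix marks for possible cross-hybridization, it was 1836 and 2084 against 1314 and 1288, higher with a log2 change of 0.59 (1.503-fold, SE 0.15, limma adjusted p = 0.453). Both shSOX11 arrays were above both shControl arrays at these probe sets, by at least 1.52-fold and 1.396-fold over the 4 pairs. Neither passed limma's adjusted 0.05 with all 4 arrays. With 1 array left out, the log2 change ran from 0.69 to 0.93 at 211919_s_at and from 0.50 to 0.68 at 209201_x_at.

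The third CXCR4 probe set, 217028_at, was lower on both shSOX11 arrays. It was at 6459 and 6795 on shSOX11 and at 7228 and 8199 on shControl arrays, a log2 change of -0.22 (SE 0.14, limma adjusted p = 0.680). Relative to this probe set, the log2 change was greater by 1.02 at 211919_s_at and by 0.80 at 209201_x_at, and the groups did not overlap in either case. With 2 arrays a group the exact two-sided permutation p was 0.333 for both, which is the smallest this design can give. No direction for CXCR4 as a gene can be given from these arrays. The beta-actin 3′/5′ ratio differed between the groups as given above, and which part of the transcript each probe set reads was not tested.

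CCR7, the receptor that leads lymphocytes into lymph nodes along CCL19 and CCL21, had signals of 354.5 and 476.1 on the shSOX11 arrays, against 396.9 and 404.0 on the shControl arrays. The groups overlapped, and the log2 change was 0.04 (SE 0.20, 95% confidence interval -0.41 to 0.49, limma adjusted p = 0.968). Without shSOX11.3 the change of CCR7 was -0.18, and without shSOX11.1 it was 0.25.

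P2RY8, which restrains germinal centre B cells together with S1PR2, was at 643.1 and 1025 on shSOX11 and at 873.2 and 865.1 on shControl arrays. Its shSOX11.1 array was below and its shSOX11.3 array above the controls, by -0.43 and 0.24 on the log2 scale. GPR183, CCR7 and P2RY8 had this order, as did 18.5% of all kept probe sets when set against the shControl mean. Its mean log2 change was -0.10 (SE 0.22, 95% confidence interval -0.61 to 0.41, limma adjusted p = 0.917), and it was 0.24 without shSOX11.1.

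The receptors for sphingosine 1-phosphate had small differences. S1PR1 was at 113.2 and 102.7 on shSOX11 and at 116.6 and 147.5 on shControl arrays, with a log2 change of -0.28 (SE 0.23, limma adjusted p = 0.745). S1PR2 at 227684_at was at 58.9 and 62.5 on shSOX11 and at 72.7 and 75.1 on shControl arrays, with a log2 change of -0.28 (SE 0.27, limma adjusted p = 0.776). In both cases the shSOX11 arrays lay just under the shControl arrays, and the closest pair was 1.03-fold apart for S1PR1 and 1.16-fold apart for S1PR2. Their 95% confidence intervals, -0.81 to 0.24 and -0.89 to 0.33, include 0. Without shControl.2 the change of S1PR1 was -0.11, and without shControl.1 it was -0.45.

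Over the 9 kept receptor probe sets, 6 were lower and 3 higher in the mean, with a median log2 change of -0.22, where 53.3% of all kept probe sets were lower and the median over all of them was -0.03. Groups did not overlap at 4 lower and 2 higher receptor probe sets. Among all kept probe sets the groups stood apart in the same way at 21.8% (lower) and 18.9% (higher). At least 1.5-fold apart on all 4 pairs were GPR18 (lower) and CXCR4 at 211919_s_at (higher), where 1.87% of all kept probe sets were lower and 1.45% higher by this rule. Nothing is read from these shares, since GPR18 was picked on this contrast. In limma with Benjamini-Hochberg adjustment at 0.05, 1 of 28202 kept probe sets passed (0.00355%). Of the 8 receptor probe sets other than that of GPR18, 0 passed, with limma adjusted p from 0.348 to 0.968. The 2 CXCR4 probe sets that were higher lay under an unadjusted 0.05 in limma, where 2329 of the 28202 kept probe sets did.

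**Figure D3:**
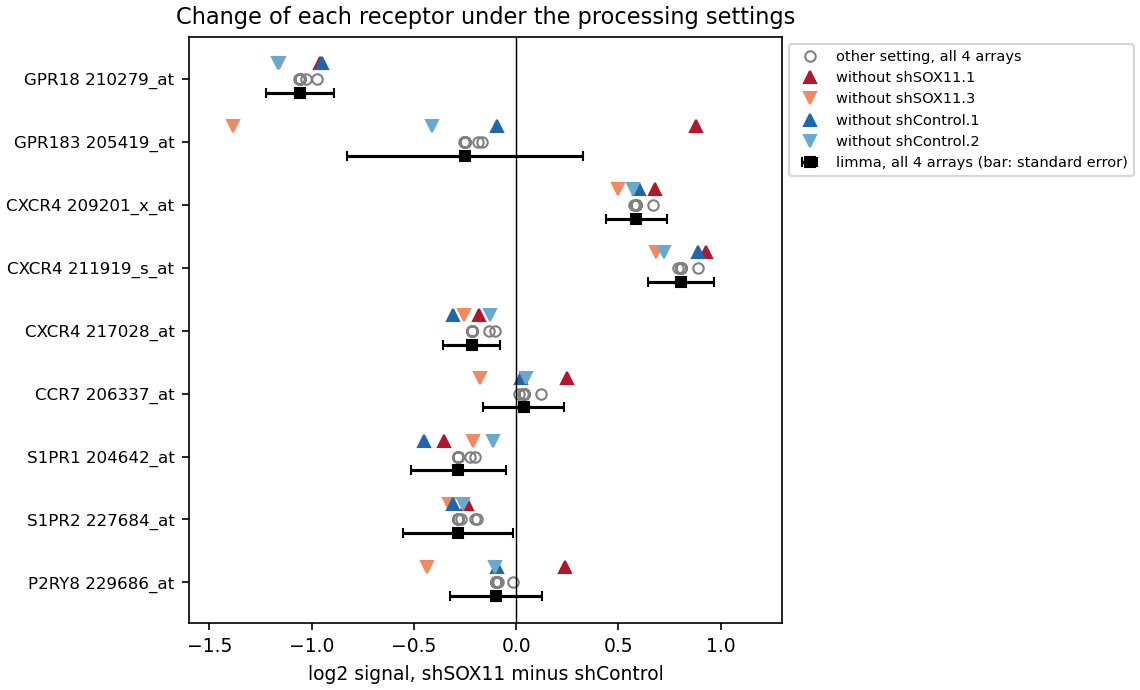
Log2 change (shSOX11 minus shControl, horizontal) of the 9 kept receptor probe sets, with the limma value and its standard error as black squares, 1 open circle for each of the other settings with all 4 arrays, and a triangle for each left-out array. GPR18 keeps to values between -1.17 and -0.95, while GPR183, CCR7 and P2RY8 change sign with the left-out shSOX11 array.

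Genes whose profile over the 4 arrays was most like that of GPR18 were looked for among the other 11937 genes, each at its brightest kept probe set. The measure was the Euclidean distance between the log2 signals, each gene centred on its own mean, and the median distance was 1.11. The 5 nearest were TIMP1, HOMER3, PPM1N, TTC39C and GNA12, with HOMER3, TTC39C and GNA12 at distances of 0.0779, 0.127 and 0.134. With 4 arrays and the difference between the groups in every one of these profiles, nearness restates that difference. TIMP1, an inhibitor of metalloproteases, and PPM1N lay below the signal threshold with both SOX11 hairpins, so their exact distances cannot be read. Only a bound on the change of the group mean holds for them, which sets the shControl mean of the log2 signals against the threshold. By this bound, which is not the closest pair of arrays, they were at least 1.86-fold and at least 1.24-fold lower. HOMER3, a scaffold protein, was at 70.4 and 81.7 on shSOX11 and at 159.5 and 141.9 on shControl arrays. TTC39C was at 307.5 and 397.6 against 798.6 and 661.2, and its 3 kept probe sets ranged from -1.06 to -0.28.

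The transducers and brakes of receptor signalling were described at 1 probe set per gene, where 24.9% of all 11938 genes were lower and 16.2% higher on both shSOX11 arrays, the median log2 change was -0.06, and 0 (0%) passed in limma at an adjusted 0.05, with 1001 under an unadjusted 0.05. At least 1.5-fold lower on all 4 pairs were 1.93% of these genes. In the lists of transducers, brakes, effectors, ligand genes, other receptors and regulators 0 genes passed after adjustment, and from 0 to 2 a list lay under an unadjusted 0.05. Of 16 G protein subunits 13 were kept, 3 lower and 1 higher on both shSOX11 arrays, with a median of -0.07. GNA12, a G protein alpha subunit, was 2.09-fold lower, at 290.8 and 368.8 against 707.3 and 662.6, and its second probe set lay at -0.56 on the log2 scale. GNA12 was put on the list with its values on these arrays known. GNG2, a gamma subunit, lay below the threshold with both SOX11 hairpins and was at least 1.19-fold lower by the same bound on the group mean.

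Of 15 RGS proteins, receptor kinases and arrestins, which end receptor signals, 14 had a probe set and 12 were kept, 4 lower and 1 higher on both shSOX11 arrays, with a median of -0.23. RGS16, which speeds the shut-off of G proteins, was at 274.4 and 234.6 on shSOX11 and at 309.1 and 314.6 on shControl arrays. RGS2 was at 259.8 and 176.1 against 334.1 and 242.1, with overlapping groups. Neither passed the test (limma adjusted p = 0.649 for RGS16 and 0.653 for RGS2).

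Among 22 migration effectors 20 were kept, 5 lower and 2 higher on both shSOX11 arrays, with a median of -0.04. CORO1A, a coronin of the leukocyte cortex, was at 667.7 and 483.5 against 958.9 and 832.3, 1.57-fold lower (log2 change -0.65, SE 0.19, limma adjusted p = 0.446). APBB1IP, an adaptor between RAP1 and integrins, had a log2 change of -0.47 (SE 0.19) at its brightest probe set, while 2 of its 3 kept probe sets were higher, up to 0.18.

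The ligand side of the pathway was mostly dim. Of the 8 chemokine ligands of these receptors 0 were kept. Of 9 enzymes and transporters of sphingosine 1-phosphate, 7 had a probe set, 5 were kept and 0 separated the groups, with SGPP1, a phosphatase of this lipid, at 437.3 and 721.5 against 442.6 and 372.8 at its brightest probe set and at a log2 change of 1.27 at the second, and PLPP1, a lipid phosphatase, at 143.7 and 100.2 against 180.6 and 135.8. Of 6 genes that make, export or break down oxysterols and the P2RY8 ligand, 5 had a probe set and 2 were kept. ABCC1, the exporter of the P2RY8 ligand, was at 913.2 and 830.0 against 838.1 and 844.2. CYP27A1, a sterol hydroxylase, was at 9.97 and 26.9 on shSOX11 and at 30.6 and 61.8 on shControl arrays, near the threshold.

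Other receptors of lymphocytes gave a mixed picture. Of 22 further lipid, nucleotide and orphan receptors 20 had a probe set and 10 were kept, 2 lower and 3 higher on both shSOX11 arrays, with a median log2 change of 0.36. P2RY10, a lysophosphatidylserine receptor of lymphocytes, was at 631.6 and 659.7 on shSOX11 and at 400.2 and 440.4 on shControl arrays (log2 change 0.62, SE 0.16, limma adjusted p = 0.394), and all 3 of its kept probe sets were higher, by 0.55 to 0.71. LPAR2, a lysophosphatidic acid receptor, was at 97.46 and 36.07 against 14.03 and 37.98, and its second probe set lay at -0.04. Of 18 other chemokine receptors 16 had a probe set and 2 were kept. The decoy receptor ACKR4 was at 33.9 and 59.7 against 29.9 and 26.5. CXCR1, a receptor best known in neutrophils, was at 8.822 and 12.19 against 33.49 and 35.04. It lay below the signal threshold with both SOX11 hairpins and was at least 1.38-fold lower by the bound on the group mean.

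Of 9 genes known to set the level of homing receptors all 9 were kept, 3 lower and 1 higher on both shSOX11 arrays, with a median of -0.14. CD69, an activation marker that binds S1PR1 and takes it off the cell surface, was at 24.6 and 129.0 on shSOX11 and at 226.4 and 251.9 on shControl arrays. Both shSOX11 arrays were lower, by unequal amounts, and the log2 change of CD69 was -2.08 (SE 0.62, limma adjusted p = 0.446). ITCH, a ubiquitin ligase that targets CXCR4 for degradation, was at 237.3 and 399.1 against 201.3 and 213.2, but of its 6 kept probe sets 4 were higher and 2 lower, from -0.36 to 1.22.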

How the data were processed

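Each of 4 RNA samples was put on its own array. The deposited intensity values are linear MAS5 signals, 1 per probe set. Per the submitters' processing notes, the tools were MAS5 and Affymetrix Expression Console; the sources used here give neither versions nor the scaling target. Equal trimmed means on all arrays are what scaling to 1 target gives. MAS5 subtracts mismatch signals, which makes dim probe sets noisy.

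No pseudocount was added before log2, 62 control probe sets were left out, and 28202 probe sets passed the filter. The groups were compared at every kept probe set with limma 3.58.1 in R 4.3.3 (lmFit and eBayes with an intensity trend, 2 residual degrees of freedom), in a two-sided test, and p-values were adjusted by Benjamini-Hochberg across the whole table of them. The fit was tested on simulated data, where most changed probe sets were recovered, but false calls past adjusted p exceeded the nominal rate. Nearly all of these lay at the dimmest kept probe sets, near the threshold, and all 9 kept receptor probe sets are brighter. Genes of 14 lists were read at their brightest kept probe set in a fit of 11938 genes. Gene names are those of the platform annotation, matched to RefSeq by Entrez identifier for all 10 receptors.

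The receptors and lists were chosen with earlier results of these data known. Named list genes were up to 4 per list that were 1.5-fold apart on all 4 pairs, filled up to 2 with the smallest p. SOX11, the receptors and the 5 genes nearest to GPR18 were also named. UBAC2 was added for its position, with its values known. The alternatives tried were each array left out, quantile normalization, centring on medians, adding 32 before log2, no filter or one at the 35th or the 65th percentile, eBayes robust or without trend, a single value per gene, other thresholds, and no _x_at probe sets. The number of arrays limits the precision.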

Additional observations from a re-analysis of the deposited data

How the results depend on the processing

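Under the 10 settings that keep all 4 arrays, all 87 changes computed for the receptor probe sets kept their sign, with GPR18 between -1.06 and -0.97. Only quantile normalization, median centring and the pseudocount alter the log2 values. Under the other settings the change of a probe set is the main value by construction, so its sign could not move. Of the 87, 0 passed limma's adjusted p of 0.05 (smallest 0.240, GPR18 not counted). The receptor probe sets at least 1.5-fold apart on all 4 pairs numbered 2, against 1 after quantile normalization, 1 with 1 value per gene, which leaves CXCR4 its probe set 217028_at, and 0 at 2-fold. Over all probe sets that count was 936, against 226 with a pseudocount of 32, 2147 and 376 with filters at the 35th and 65th percentile, 4661 without a filter, 321 with 1 value per gene and 226 at 2-fold. The count past adjusted p was 1, and it was 0 with median centring, the filter at the 65th percentile, no filter, no trend, 1 value per gene and no _x_at probe sets, where 2329 probe sets lay under an unadjusted 0.05 with all 4 arrays in limma. The causes of these shifts were not tested.

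With each array left out, a group reduced to 1 array is taken to have the other group's spread. The counts then ran from 0 to 1585 for probe sets past adjusted p (1585 without shSOX11.1, 200 without shSOX11.3 and 0 without either shControl array), from 2421 to 4144 for those 1.5-fold apart, from 2 to 4 for receptor probe sets 1.5-fold apart, and from 0 to 3 for receptor probe sets past adjusted p. The 3 without shSOX11.1 were GPR183 and the 2 CXCR4 probe sets that were higher, and the 2 without shSOX11.3 were GPR183 and CXCR4 at 211919_s_at. GPR183 ran from -1.38 to 0.88, CCR7 from -0.18 to 0.25 and P2RY8 from -0.43 to 0.24. These fits take their error from the narrower shControl pair when a shSOX11 array is left out. No paired analysis was possible because the groups share only construct number 1, which names a hairpin and not a common culture.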

Other observations

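Genes near GPR18 and GPR183 on their chromosome were also measured. UBAC2, whose span holds both receptor genes, read 683.2 and 719.1 with the SOX11 hairpins, against 625.9 and 669.5 with the scrambled ones. Of 7 listed genes 6 were kept, 1 lower and 3 higher on both shSOX11 arrays, with a median log2 change of 0.17, where 24.9% of all kept genes were lower and 16.2% higher. The lower one was FARP1, a guanine nucleotide exchange factor, at 238.5 and 218.7 against 303.1 and 318.3 (log2 change -0.44, SE 0.17, limma adjusted p = 0.546), named after its values were seen. TM9SF2, a membrane protein of the endosomal system, was at 1715 and 2013 against 1265 and 1229 (log2 change 0.58, SE 0.15, limma adjusted p = 0.394). CLYBL, a mitochondrial enzyme, was at 180.7 and 158.2 against 90.9 and 131.0 (log2 change 0.63, SE 0.24, limma adjusted p = 0.544), and its second kept probe set lay at 0.02. Of the 6 genes 0 passed in limma at 0.05 after adjustment. Under an unadjusted 0.05 in limma lay 3 of them, where 1001 of all 11938 kept genes did. The difference in change between GPR18 and its neighbours was not tested.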
